A study of Mus musculus with 14 samples.

Results

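The RUNX transcription factor genes Runx1, Runx2 and Runx3 and the gene of their binding partner, Cbfb, were examined in a list of genomic sites that carried acetylated lysine 27 of histone H3 (H3K27ac) in mouse fibroblasts. H3K27ac marks active promoters and enhancers. A site was taken as belonging to a gene when its middle lay inside the annotated gene body or within 100 kb of either end, in GRCm38/mm10. This gave 260 of the 122228 sites of the list, of which 54 belonged to Runx1, 118 to Runx2, 56 to Runx3 and 32 to Cbfb.

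The cells were immortalised mouse embryo fibroblasts (iMEF) of the individual clone NG3. In these cells, exon 4 of the endogenous Ash2l had been deleted by an inducible Cre recombinase, and a human ASH2L fused to FKBP-F36V and HA tags was expressed from a lentiviral vector. ASH2L is a core subunit of the complexes that methylate lysine 4 of histone H3, and the compound dTAG-13 recruits the ubiquitin ligase component Cereblon to the tag, so that the fusion protein is degraded. H3K27ac was profiled by ChIP-seq in 12 libraries, with 2 libraries per group. One group was untreated (control), and the dTAG groups were treated for 30 min, for 2 h or 4 h, or for the longer times of 8 h and 16 h. Input chromatin was sequenced as 1 library from control cells and 1 from the dTAG 16 h group. All groups shared the deletion, the fusion protein and the clone. The list joined the peaks of all samples and had a position but no read count, height or sample for a site. Time points could therefore not be compared from it, no value below has a replicate error, no difference was tested, and the read depth behind a site was unknown.

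RUNX proteins bind DNA through a runt domain and need the non-DNA-binding partner CBFB for stable binding. RUNX1 is known as a regulator of blood stem cell formation, RUNX2 of bone formation, and RUNX3 of T cell and sensory neuron development. Each RUNX gene has a distal promoter, P1, and a proximal promoter, P2, from which proteins with different amino termini are made. P1 and P2 were identified here from the annotated transcripts, because the translated coding sequence begins with Met-Ala-Ser from P1 and Met-Arg-Ile from P2. The P1 start lay 128.8 kb upstream of the P2 start in Runx1, 78.1 kb in Runx2 and 31.8 kb in Runx3. Cbfb has a single promoter.

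The 150 bases before the transcription start site (TSS) of 6 of the 7 promoters are shown as examples of their CpG content. They were read from the RefSeq GRCm38.p6 sequence in the direction of the gene, and capitals mark CpG dinucleotides.
Runx1 P1 (chr16:92826150-92826299, minus strand): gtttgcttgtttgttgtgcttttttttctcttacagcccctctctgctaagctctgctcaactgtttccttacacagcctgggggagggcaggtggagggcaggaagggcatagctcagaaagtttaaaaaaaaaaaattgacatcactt
Runx2 P1 (chr17:44814798-44814947, minus strand): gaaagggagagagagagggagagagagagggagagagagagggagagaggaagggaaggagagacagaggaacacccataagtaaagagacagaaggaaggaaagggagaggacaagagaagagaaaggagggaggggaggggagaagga
Runx3 P1 (chr4:135120502-135120651, plus strand): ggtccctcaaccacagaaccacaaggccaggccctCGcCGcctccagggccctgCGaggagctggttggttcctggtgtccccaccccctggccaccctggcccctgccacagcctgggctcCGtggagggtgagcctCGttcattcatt
Runx1 P2 (chr16:92697329-92697478, minus strand): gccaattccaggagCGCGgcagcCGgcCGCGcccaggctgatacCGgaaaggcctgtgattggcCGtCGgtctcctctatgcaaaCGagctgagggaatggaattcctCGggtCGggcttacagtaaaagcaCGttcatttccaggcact
Runx3 P2 (chr4:135152346-135152495, plus strand): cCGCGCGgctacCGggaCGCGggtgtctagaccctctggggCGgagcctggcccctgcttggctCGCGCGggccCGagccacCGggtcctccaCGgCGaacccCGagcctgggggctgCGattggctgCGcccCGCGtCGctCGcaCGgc
Cbfb promoter (chr8:105170524-105170673, plus strand): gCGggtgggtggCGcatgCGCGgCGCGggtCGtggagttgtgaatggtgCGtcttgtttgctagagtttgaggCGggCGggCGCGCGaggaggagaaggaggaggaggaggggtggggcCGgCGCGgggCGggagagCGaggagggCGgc
The P1 stretches of Runx1 and Runx2 held 0 CpGs and that of Runx3 held 5. The P2 stretches held 12 in Runx1 and 22 in Runx3, and the Cbfb stretch held 19.

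In all 3 RUNX genes the sites covered more of P2 than of P1 within 1 kb. Within 1 kb of the 5′-most P2 start, 1803 bp lay inside sites in Runx1, 1875 bp in Runx2 and 1450 bp in Runx3. Within 1 kb of the 5′-most P1 start the values were 551 bp in Runx1, 1519 bp in Runx2 and 24 bp in Runx3. The Cbfb promoter had 1587 bp. Closer in, within 500 bp, the order held in Runx1 (955 bp at P2 and 351 bp at P1) and Runx3 (950 bp and 0 bp) but turned in Runx2, whose P1 was inside a site throughout while P2 had 875 bp. P2 was thus well covered in each gene, while P1 ranged from well covered in Runx2 to nearly bare in Runx3. Among the 54086 distinct TSSs of protein-coding transcripts, the share with a lower value was 91.4% for Runx1 P2, 93.8% for Runx2 P2 and 77.8% for Runx3 P2. For P1 it was 51.4% in Runx1, 80.5% in Runx2 and 46.6% in Runx3. The median over all of these TSSs was 445.5 bp.

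**Figure D1:**
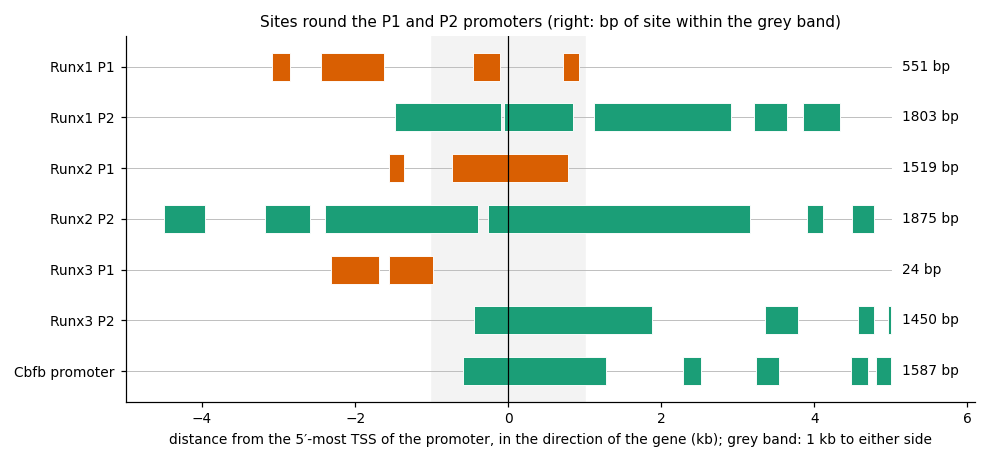
Sites (bars) within 5 kb of the 5′-most TSS of each promoter, by distance from it in kb in the direction of the gene, with P1 in orange and P2 and the Cbfb promoter in green. A bar crosses the start line at all 3 P2 promoters, at the Cbfb promoter and at Runx2 P1, and none does at Runx1 P1 or Runx3 P1.

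At Runx1 P2, the promoter from which most non-blood tissues are known to transcribe the gene, 3 sites of 1791, 898 and 1390 bp followed each other. The 898 bp site (chr16:92696480-92697377) held the 5′-most start, and the 1791 bp site (chr16:92694413-92696203) held the other annotated P2 start. With neighbours less than 1 kb apart joined, 5 sites formed a run of 5822 bp, from -1485 to 4336 bp relative to the start. At Runx1 P1, known as the promoter of definitive blood cells, only 2 narrow sites lay within 1 kb of a start. They measured 351 bp (chr16:92826259-92826609) and 200 bp (chr16:92825229-92825428). The first lay at -460 to -110 bp and the second at 721 to 920 bp, so that neither of the 2 annotated P1 starts was inside a site.

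Runx2 was the only one of the RUNX genes with a site over its P1, from which the isoform that is predominant in bone-forming cells is made. This site measured 1519 bp (chr17:44814016-44815534), reached from -737 to 781 bp, and held all 3 annotated P1 starts. It was wider than 92.3% of the list. The Runx2 P2 site measured 3430 bp (chr17:44733488-44736917), was wider than 98.9% of the list and held all 3 P2 starts. A start of Runx2os1 also lay within 1 kb of the middle of this site. A second site of 1996 bp (chr17:44737044-44739039) ended upstream of the P2 start, at -396 bp, and 7 sites formed a run of 10198 bp round P2. This was the longest run at any of the 7 promoters.

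At Runx3 P2 a single site of 2326 bp (chr4:135152047-135154372) reached from -449 to 1876 bp. At Runx3 P1 no site had its middle within 1 kb of the start. The nearest site, of 578 bp (chr4:135119098-135119675), ended 977 bp upstream of it. Its last bases account for the 24 bp above. The Cbfb promoter site measured 1858 bp (chr8:105170088-105171945), reached from -586 to 1271 bp and held all 4 annotated coding starts.

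In all 4 genes a site lay within 1 kb of some annotated TSS. The same held for 11908 of 21755 protein-coding genes (54.7%). To set the P1 and P2 pattern beside other genes, protein-coding genes were taken whose most distal and most proximal complete coding transcripts start 10 kb or more apart, which gave 2411 genes. Both starts had a site within 1 kb in 15.6% of them, and Runx1 and Runx2 were in this class. Only the proximal start had one in 10.7%, and Runx3 was in this class. Only the distal start had one in 35.1% and neither in 38.6%. More bases within 1 kb lay inside sites at the proximal start than at the distal one in 17.0% of these genes, and in 3 of 3 RUNX genes. The 17.0% is of all 2411 genes, including the 38.6% with a site at neither start. The remaining genes therefore need not favour the distal start.

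The base composition also differed between P2 and P1 in all 3 RUNX genes. In 1 kb centred on the TSS, the observed to expected ratio of CpG was 0.86 at Runx1 P2, 0.91 at Runx2 P2, 0.95 at Runx3 P2 and 0.93 at the Cbfb promoter. At P1 it was 0.31 in Runx1, 0.16 in Runx2 and 0.36 in Runx3. The GC content was 61.9%, 54.7% and 74.0% at P2 of Runx1, Runx2 and Runx3, against 46.9%, 45.2% and 52.1% at P1. With a GC content of at least 50% and a ratio of at least 0.6 taken as CpG-rich, all 3 P2 promoters and the Cbfb promoter were CpG-rich and the 3 P1 promoters were not. Over all protein-coding TSSs, 84.4% of the CpG-rich ones and 25.6% of the others had a site within 1 kb. In 160 of the genes with distant starts the distal start was CpG-poor and the proximal one CpG-rich. Runx2 and Runx3 were among these. Runx1 was not, because its most proximal start is the other P2 start, which was not CpG-rich. Of the 160, 82 had a site only at the proximal start (51.2%), 32 at both and 5 only at the distal start. Runx2 P1 therefore combined the lowest CpG ratio of the 7 promoters with a site over its start.

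**Figure D2:**
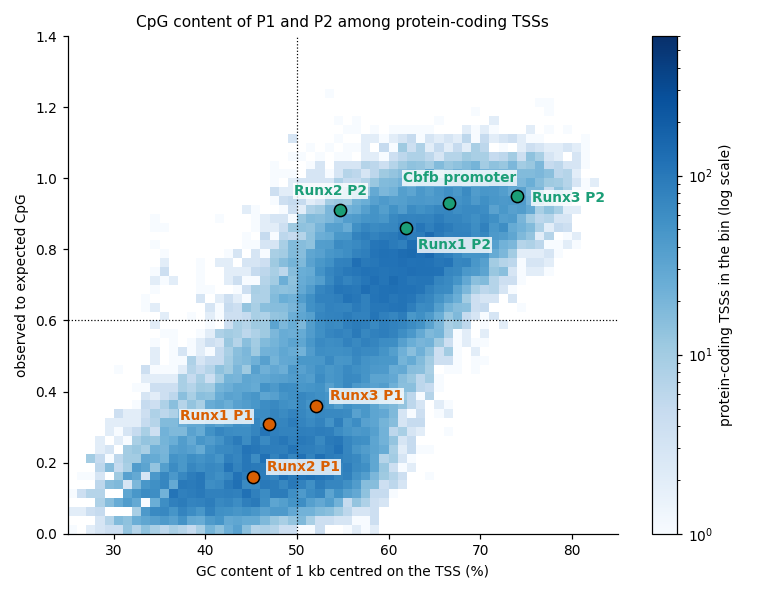
GC content (%) and observed to expected CpG ratio in 1 kb centred on the TSS, with all protein-coding TSSs as a shaded density and the RUNX and Cbfb promoters as points; dotted lines mark 50% and 0.6. The 3 P2 promoters and the Cbfb promoter lie at ratios of 0.86 to 0.95, and the 3 P1 promoters at 0.16 to 0.36.

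The P1 promoters also shared a sequence. The longest stretch common to the windows of 250 bases to either side of the 3 P1 starts had 18 bases and held the RUNX motif TGTGGT 2 times, read on the other strand as ACCACA. It is shown in capitals within 30 bases, because it recurs at P1 of all 3 genes while only 1 of the copies was covered by a site.
Runx1 P1 (chr16:92826031-92826048): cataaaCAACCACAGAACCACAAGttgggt
Runx2 P1 (chr17:44814589-44814606): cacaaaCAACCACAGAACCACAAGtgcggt
Runx3 P1 (chr4:135120509-135120526): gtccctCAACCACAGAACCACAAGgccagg
The coordinates are those of the 18 bases. On chromosomes 1 to 19 and X this stretch occurred 3 times on either strand, once at each RUNX P1. It began 101 bp downstream of the 5′-most start in Runx1 and 191 bp downstream in Runx2, in the 5′ untranslated region of both, and at -143 bp in Runx3. Only the Runx2 copy was inside a site, the P1 site of 1519 bp, which held 5 RUNX motif matches in all. The Runx1 copy lay in the gap between the 2 narrow sites, 211 bp from the nearer, and the Runx3 copy lay 834 bp from the nearest site. Among 32817 RefSeq promoter windows, the stretch was in 4, namely those of the 3 P1 promoters and of Gm16225, whose window overlaps that of Runx3. At least 1 RUNX motif was in 16.8% of these windows. The corresponding windows at P2 shared no stretch longer than 7 bases.

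Within the gene bodies, the bases inside sites lay at a higher density past P2 than between P1 and P2. In Runx1, 2.52% of the bases between P1 and P2 were inside sites, against 35.2% from P2 to the gene end. In Runx2 the values were 11.7% and 26.1%, and in Runx3 they were 4.78% and 20.5%, promoter sites included. Without the sites at P1 and P2 the values were 1.25% and 32.4% in Runx1, 10.4% and 24.8% in Runx2, and 3.37% and 13.1% in Runx3. With promoter sites included, the share was larger past the proximal start in 24.8% of the 2411 genes with distant starts, and in 3 of 3 RUNX genes. The 2411 genes include those with a site at neither start. Counted as sites, with those at the promoters, the stretch between P1 and P2 held 5 in Runx1, 12 in Runx2 and 1 in Runx3, and the stretch past P2 held 39, 101 and 4.

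**Figure D3:**
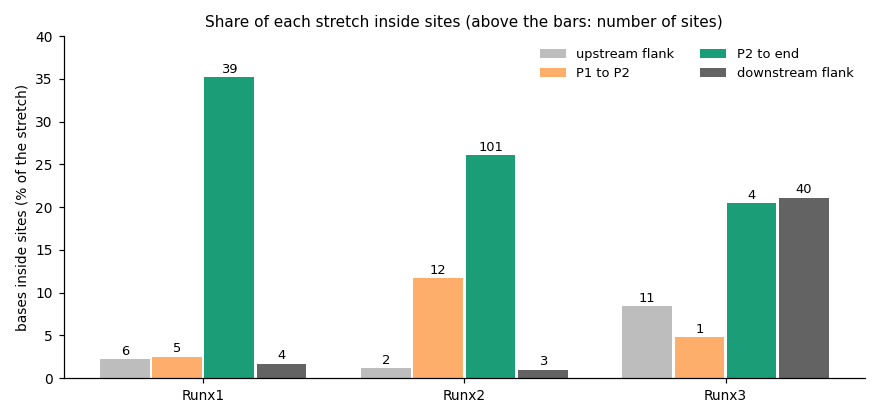
Share of bases inside sites (%) in 4 stretches of each RUNX locus, with the number of sites above each bar and flanks of 100 kb. The bar for P2 to the gene end is higher than that for P1 to P2 in all 3 genes, and in Runx3 the downstream flank, which contains Clic4, is as high at 21.1%.

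In Runx1, the long intron between P1 and P2 held 3 sites beyond 1 kb of any TSS. They measured 235 bp, 766 bp and 607 bp (chr16:92706307-92706541, chr16:92777783-92778548 and chr16:92778704-92779310). No site lay from 48.4 to 119.6 kb or from 0.921 to 46.8 kb downstream of P1, gaps of 71.2 and 45.9 kb. The stretch from P1 to P2 was therefore nearly empty although it spans 128.8 of the 224.7 kb of the gene. The 34 intronic sites past P2 had a median width of 441 bp. The widest measured 5999 bp (chr16:92619691-92625689), wider than 99.8% of the list, and lay 71639 to 77637 bp downstream of P2. The next widest sites of the locus, of 3323 bp (chr16:92608043-92611365) and 2087 bp (chr16:92625707-92627793), were also intronic and past P2. With neighbours joined, the longest run held 7 sites over 11729 bp and included the widest site.

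In Runx2, 10 intronic sites with a median width of 512 bp lay between P1 and P2, and 94 with a median of 406 bp lay past P2. Between P1 and P2, a further site of 1349 bp (chr17:44776622-44777970) stood at the start of Supt3, a gene for a subunit of a histone acetyltransferase complex that starts inside this intron on the other strand and runs past Runx2 P1. No site lay between this one and the P1 site, a gap of 36.0 kb. The gene body as annotated extends 108.0 kb beyond the end of the coding transcripts, through 1 transcript subject to nonsense-mediated decay. This extension held 13 sites, among them the widest of the locus (4619 bp, chr17:44499115-44503733), which lay close to the gene end. From P2 to the end of the coding transcripts, over 132.6 kb, 88 sites covered 39.1% of the bases. The second widest site measured 4175 bp (chr17:44704158-44708332), 28316 to 32490 bp downstream of P2, and belonged to the longest run of any locus, with 13 sites over 15021 bp. Of these 13 sites, those of 391 bp and 2073 bp lay within 1 kb of a start of Runx2os2. Another site of 1221 bp (chr17:44658069-44659289) had its middle in a coding exon.

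Runx3 had few sites of its own. One site of 1072 bp (chr4:135146395-135147466) lay between P1 and P2, and past P2 there were the P2 site and 3 intronic sites of 431, 209 and 2707 bp. The site of 2707 bp (chr4:135157462-135160168) lay 4966 to 7672 bp downstream of P2 and was wider than 98.0% of the list. Upstream of P1, 11 sites lay within 100 kb, the widest of 1785 bp (chr4:135095787-135097571). The other 40 sites of the locus lay downstream of the gene, and 34 of them were inside the body of Clic4, a chloride channel family gene on the other strand, with 1 more at the Clic4 start. The widest site of the locus (3756 bp, chr4:135269005-135272760) was one of those inside Clic4. In the Runx3 gene body alone there were 5 sites.

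**Figure D4:**
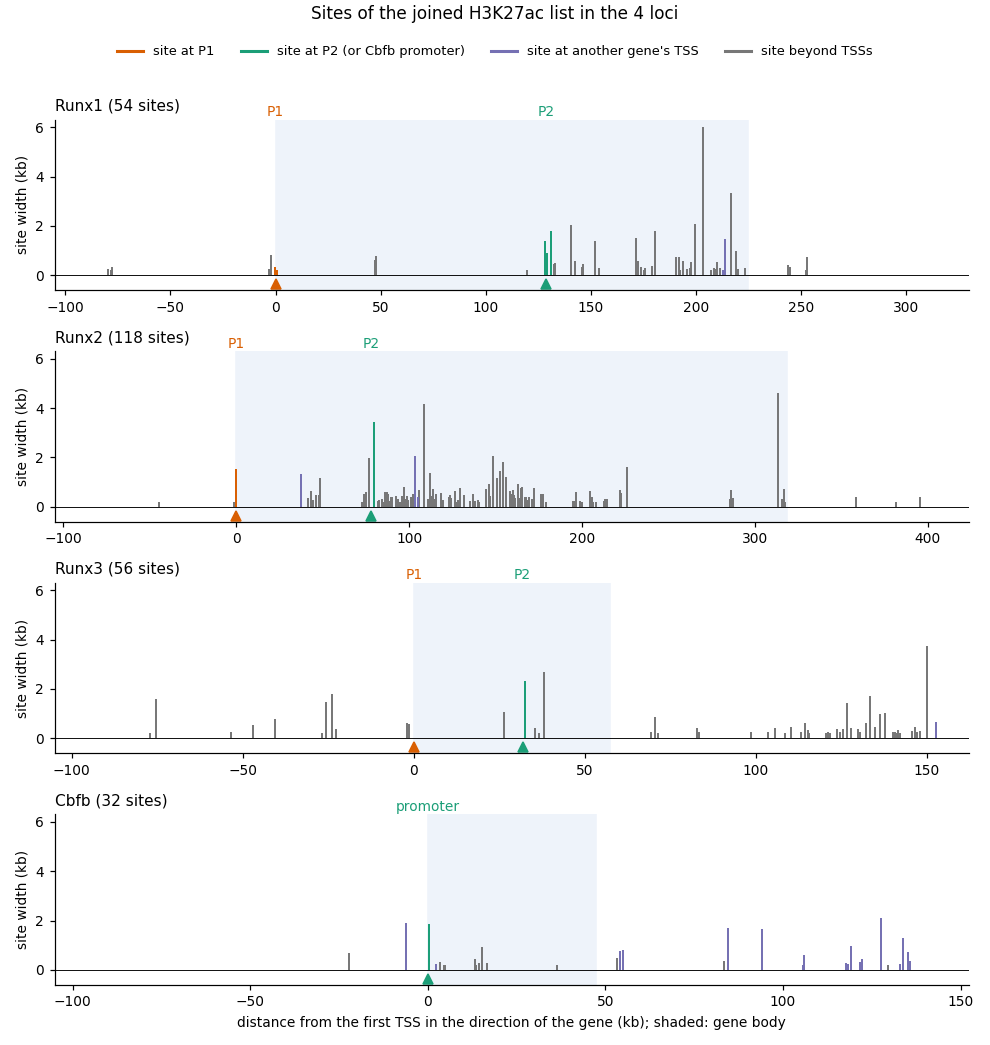
Position of each site by distance from the first TSS in kb, in the direction of the gene, with the height of a line giving the site's width in kb; the gene body is shaded and triangles mark the promoters. The tall lines of Runx1 and Runx2 lie past P2, up to 5999 bp in Runx1, the stretch from P1 to P2 is sparse, and most Runx3 sites lie downstream of the gene.

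The Cbfb gene body held 11 sites. Besides the promoter site these were 9 intronic sites with a median width of 276 bp, the widest of 922 bp, and 1 near the start of Gm22063. Of the 11 sites, 5 lay at -586 to 5014 bp relative to the start and 5 lay 13087 to 16898 bp downstream of it, where they formed the longest run of the locus at 3812 bp. The last lay alone at 36248 to 36447 bp, beyond a gap of 19.3 kb. The flanks differed from those of the RUNX genes, because 12 other protein-coding genes start within them and 9 of these had a promoter site. The widest belonged to E2f4, a cell cycle transcription factor gene (2100 bp), B3gnt9 (1705 bp) and the closely spaced Fbxl8 and Tradd (1644 bp for the same site). Ces3b, Ces4a and Hsf4 had none. A site of 1918 bp (chr8:105163658-105165575) lay upstream of Cbfb near the start of Gm3830. In the Runx1 locus no other protein-coding gene started, in the Runx2 locus only Supt3 and in the Runx3 locus only Clic4.

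By density, the loci were among the richer ones. Counting sites per Mb over the gene body and 100 kb flanks, Runx2 had 227.4 and Runx3 217.6, higher than 97.7% and 97.2% of protein-coding genes. Cbfb had 129.4 and Runx1 127.2, higher than 85.4% and 84.7%. The median over genes was 55.2. In the gene body alone, Runx3 had 87.2 sites per Mb, higher than 67.3% of genes, so that its rank rested on the flanks. At the limit of 100 kb, the last site inside and the first outside were as follows. At the 3′ end of Runx3 the last site inside lay 95.44 kb from the gene (675 bp wide) and the first outside 108.7 kb (1830 bp wide). At the 3′ end of Runx2 these were 76.97 kb (398 bp) and 101.1 kb (340 bp), and at the 5′ end of Runx1 79.54 kb (251 bp) and 101.9 kb (302 bp). At the 3′ end of Cbfb they were 88.41 kb (378 bp) and 108.7 kb (2216 bp). On the other sides the nearest site outside lay 135.7 kb from Runx1 (781 bp), 203.9 kb from Runx2 (262 bp), 111.0 kb from Runx3 (578 bp) and 529.0 kb from Cbfb (1805 bp), and the last site inside lay 28.23 kb (734 bp), 44.82 kb (200 bp), 77.25 kb (200 bp) and 22.08 kb (701 bp) from these genes.

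Sites at P2 were wider than most of the others. The 5 sites at P2 measured 898 to 3430 bp, with a median of 1791 bp. The 3 at P1 measured 200 to 1519 bp, with a median of 351 bp. The 145 RUNX intronic sites beyond TSSs had a median of 431 bp, against 369 bp for the 99287 sites of the list beyond TSSs, and they ranged from 200 to 5999 bp. Over the whole list, sites at TSSs had a median of 678 bp.

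Apart from the shared P1 stretch, the RUNX motif was no more frequent in these sites than elsewhere. The letters TGTGGT were found on either strand in 85 of 260 sites (32.7%), with a 95% Wilson interval of 27.3 to 38.6% that covers counting error only, and in 35.4% of the whole list. Per kb there were 0.821 matches in the loci and 0.844 in the list. The share grew with width in the loci, from 13.4% among the narrowest 25% of widths to 61.9% among the widest 25%, and in the list, from 18.5% to 61.3%. The AP-1 motif TGANTCA, bound by FOS and JUN proteins, was in 22.3% of the sites of the loci and 21.1% of the list. In introns beyond TSSs it was in 12 of 37 sites in Runx1 (32.4%), 20 of 104 in Runx2 (19.2%), 1 of 4 in Runx3 and 0 of 9 in Cbfb, beside 21.7% of the sites of the list beyond TSSs. The TEAD motif GGAATG was in 28.1% and 30.0%, the ETS motif CCGGAA in 13.1% and 11.3%, the cAMP response element TGACGTCA in 0.385% and 0.749%, and the GC box GGGCGG, bound by SP factors, in 16.2% and 17.1%, each for the loci and the list. By promoter, the P2 sites of Runx2 and Runx3 each held 6 GC boxes, the 3 P2 sites of Runx1 held 2, 0 and 0, and the Cbfb site held 16. The 2 P1 sites of Runx1 and the 1 of Runx2 held 0, and Runx3 P1 had no site.

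The widest intronic site of each RUNX gene held both RUNX and AP-1 motifs, as did 71.2% of the 2497 sites of the list that were at least 2707 bp wide. There were 5 RUNX and 5 AP-1 matches in the 5999 bp site of Runx1, 4 and 7 in the 4619 bp site of Runx2, and 6 and 2 in the 2707 bp site of Runx3. Per kb, the RUNX motif had 0.833, 0.866 and 2.22 matches in the sites of Runx1, Runx2 and Runx3, beside 0.814 in the wide sites of the list, and the AP-1 motif had 0.833, 1.52 and 0.739, beside 0.403. For each, the 80 bases with the most matches are shown in the direction of the gene, with the matches in capitals, because these are the widest sites of the genes beyond the promoters.
Runx1 intron (chr16:92623998-92624077, minus strand): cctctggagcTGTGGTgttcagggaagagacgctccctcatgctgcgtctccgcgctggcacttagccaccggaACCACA
Runx2 intron (chr17:44502341-44502420, minus strand): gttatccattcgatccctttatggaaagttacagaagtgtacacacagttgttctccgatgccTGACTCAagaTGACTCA
Runx3 intron (chr4:135159242-135159321, plus strand): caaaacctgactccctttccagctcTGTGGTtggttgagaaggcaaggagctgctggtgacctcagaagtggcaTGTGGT
The stretches of Runx1 and Runx3 held 2 RUNX matches each, and that of Runx2 held 2 AP-1 matches with few bases between them. The 4619 bp site of Runx2 lay beyond the end of the coding transcripts, in the stretch annotated through 1 transcript subject to nonsense-mediated decay. The second widest intronic site of Runx2, of 4175 bp, lay before that end and held 8 RUNX and 0 AP-1 matches.

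Nearly all genes of a chosen list of RUNX cofactors had a promoter site. Of 27 cofactor genes, 26 had one (96.3%), beside 54.7% of all protein-coding genes. They included the Groucho family genes Tle1, Tle2, Tle3, Tle4 and Aes, the acetyltransferases Ep300 and Crebbp, and Yap1. The widest promoter sites were those of Wwtr1, a Hippo pathway coactivator (3869 bp), Twist2, an inhibitor of RUNX2 in bone (3861 bp), and Runx1t1, the corepressor known as a fusion partner of RUNX1 in leukaemia (3199 bp). The one without was Cbfa2t3, its blood-expressed relative. The list was chosen with earlier results of these data known and was not compared with other broadly expressed genes. Over all protein-coding TSSs, 84.4% of the CpG-rich ones had a site within 1 kb. Whether the share is particular to RUNX cofactors was not tested.

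Beside 54.7% of all protein-coding genes, 8 of 16 osteoblast genes of the RUNX2 programme had a promoter site (50.0%). These included the stress factor gene Atf4 (3223 bp), the collagen gene Col1a2 (3206 bp), Dlx5 (2117 bp), Tnfrsf11b (1556 bp), Msx2 (980 bp), Spp1 (716 bp) and Mmp13 (218 bp). The 8 without one were Sp7, Col1a1, Alpl, Ibsp, Bglap, Bglap2, Dmp1 and Phex. Among 16 blood genes of the RUNX1 programme 4 had one, namely Itga2b (2658 bp), Mpo (670 bp), Lyl1 (432 bp) and Csf1r (200 bp), and Spi1, Tal1, Gata1 and Ptprc did not. Among 14 genes of the RUNX3 context 6 had one (42.9%), with the widest at the cartilage regulator genes Sox9 (3250 bp) and Sox6 (2029 bp) and at the cell cycle inhibitor gene Cdkn1a (1700 bp). The others with a site were Bcl2l11, Ntrk3 and Col10a1, and the T cell genes Cd8a, Cd4 and Itgae had none. In each of these lists the share was below that of all protein-coding genes, but the difference was not tested. The lists held only 14 or 16 genes, so a few genes could change the order for the osteoblast and RUNX3 lists.

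The labelled cell type was compared with markers. Of 14 fibroblast markers 9 had a promoter site, among them S100a4 (7557 bp), Pdgfrb (4884 bp) and Vim (3921 bp), while Col1a1, Prrx1, Dcn, Lum and Fap had none. Of 8 blood markers 2 had one, of 6 epithelial markers 1, of 4 endothelial markers 2 and of 4 neuronal markers 1. Beside 54.7% of all protein-coding genes, the fibroblast share was 64.3%, so that it stood little above the background.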

How the data were processed

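Per the labels and the study's methods, the authors used Trim Galore for trimming, BWA for alignment to mm10, SAMtools for filtering, Picard for merging of replicates and MACS2 for narrow peaks, whose threshold was not given in the sources used here. The authors deposited the joined peaks of all samples as positions (chromosome, start and end in bp). How they were joined was not stated, so a joined width can exceed that in any sample. Starts were counted from 0, since the narrowest site then had 200 bp, and are printed counted from 1.

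Sites on chromosomes 1 to 19 and X (122171) were set against GENCODE M21, an earlier release than the authors', and the RefSeq GRCm38.p6 sequence, in Python 3 with pandas, pysam and SciPy, after tests of the functions on simulated data. Of 816 RefSeq promoter windows checked, 816 were identical to the sequence used. A site was at a promoter when its middle lay within 1 kb of a TSS. Intronic sites had their middle in no exon of the gene and beyond 1 kb of every annotated TSS, and some of them overlapped an exon. Named were the RUNX genes and Cbfb with every promoter site, the 3 widest sites of each locus, the sites at the 100 kb limit, other protein-coding genes that start in the loci, and, of each gene list, the smaller of the groups with and without a site plus the 3 widest; other names were added after their values were seen. The members and lists were chosen with earlier results of these data known. The study also describes a list of sites that changed at each time point, which was not analysed here. A few items are not reported here. Motifs were searched as exact letters on both strands. The alternatives were other flanks, windows, overlap rules, widths, transcripts and motifs.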

Additional observations from a re-analysis of the deposited data

How the results depend on the processing

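Of 48 alternative values for the 17 main results, 34 stayed within 1.5 times the reported value and 14 did not. For the share of sites with a RUNX motif and of protein-coding genes with a promoter site, the limit was the confidence interval. The limit of 1.5 times was wide for percentiles. That of the Runx3 locus counted as within it when it fell from 97.2 to 67.3 in the gene body alone. The 260 sites became 173 in gene bodies only and 89 runs when sites less than 1 kb apart were merged. With the gene body taken from protein-coding transcripts only, a choice made after seeing the data, there were 253. The 3 sites at P1 became 6 within 2 kb and 8 within 3 kb, and the 5 at P2 became 10 within 3 kb. Part of this is Runx3 P1, which had 0 sites within 1 kb, 1 by any overlap and 2 within 2 kb. The share of the window inside sites moved from 75.9% to 43.0% at Runx2 P1 and from 79.3% to 46.4% at the Cbfb promoter with 2 kb, and from 1.2% at Runx3 P1 to 0.0% with 500 bp and 22.2% with 2 kb. P2 exceeded P1 in Runx1 and Runx3 at every window, and in Runx2 at 1 kb and 2 kb but not at 500 bp, where P1 was inside a site throughout and P2 had 875 bp. The RUNX motif share fell to 12.7% with TGTGGTT and 12.3% in the central 200 bp, beside 13.4% and 15.7% for the whole list. The share of protein-coding genes with a promoter site was 56.8% with 2 kb, 55.8% with any overlap and 53.6% without the narrowest 25% of sites. The depth behind the sites was unknown, so an empty stretch is a stretch without a called peak. No paired analysis was possible because positions without samples were analysed.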
